A study of Mus musculus with 21 samples.

Results

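The genes described here are 8 genes of the T helper 1 (Th1) and cytotoxic effector program, namely Tbx21, Eomes, Runx3, Ifng, Il12rb2, Gzmb, Cxcr3 and Nkg7. They were taken by name from a table that pairs gene names with Ensembl identifiers, and all 8 were found among the 47643 genes of the count table and among the 15300 genes that had at least 10 counts over all samples. RNA was measured by 3' mRNA sequencing in splenic CD4+ T cells of Tg4 Tiger Nr4a3-Tocky mice, and 3 mice were sampled in each of 7 groups. Every group, the control group included, carried the Tg4 transgene, which encodes a T cell receptor specific for a peptide of myelin basic protein (MBP), the Tiger Il10-GFP reporter and the Nr4a3-Tocky reporter, a fluorescent Timer protein under the control of Nr4a3 that is blue when new and red once mature. The control mice were untreated, and the others were injected under the skin with [4Y] MBP peptide at 0.8 µg or 80 µg, without adjuvant, and sampled 4 h, 12 h or 24 h later. The sorting gate changed with time, from Blue+Red- cells at 4 h through Blue+Red+ cells at 12 h to Blue-Red+ cells at 24 h, and time and gate cannot be told apart. No gate is given for the control cells. The age of the mice was not given, and both sexes were used in the study.

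Tbx21 encodes T-bet, the T-box transcription factor that directs Th1 differentiation, and Eomes encodes eomesodermin, a related T-box factor best known in CD8 T cells and NK cells. Interleukin-12, received through the chain encoded by Il12rb2, and T cell receptor signals act with T-bet and the Runt domain factor Runx3 on the gene of the cytokine interferon gamma (Ifng). Granzyme B (Gzmb), a protease that triggers death of target cells, and the granule membrane protein encoded by Nkg7 belong to the cytotoxic program, while Cxcr3 is a chemokine receptor that guides Th1 cells to inflamed tissue.

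The members lie on 8 chromosomes of the GRCm38 build, counted from 1 and annotated as protein coding in GENCODE vM21. Tbx21 spans 97098071 to 97115331 on the minus strand of chromosome 11, Eomes 118478212 to 118486132 on the plus strand of chromosome 9, and Runx3 135120652 to 135177990 on the plus strand of chromosome 4. Ifng spans 118441046 to 118445892 on the plus strand of chromosome 10, and Il12rb2 67291318 to 67376188 on the minus strand of chromosome 6. Gzmb lies at 56258838 to 56262260 on the minus strand of chromosome 14, Cxcr3 at 101731535 to 101734269 on the minus strand of chromosome X, and Nkg7 at 43437073 to 43438249 on the plus strand of chromosome 7. Exons of 3 members overlap those of another annotated gene. Eomes overlaps Gm33460 and Il12rb2 overlaps Serbp1, both on the opposite strand, and Ifng overlaps Gm49751 on the same strand. The library type keeps strand, but the strand setting of the counting step was not stated, so reads of these 3 genes may have been left out or shared.

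The sequence before the gene start is shown for 5 members, chosen as the cytokine and the cytotoxic effector with the largest dose effects at 4 h, the receptor chain whose levels were most like those of Gzmb, and the pair of T-box factors whose dose effects had opposite signs. Promoter sequences were taken from RefSeq on GRCm38.p6, where all 8 members had an entry, 9 windows in all because Runx3 has 2. Each run is the 250 bases before the RefSeq start, 5′ to 3′ on the strand of the gene. Capitals mark every match, on either strand, to any of 5 short motifs: a T-box site (TCACACC), a Runx core (TGTGGT), an NFAT core (GGAAA), an AP-1 site (TGANTCA) and a STAT site (TTCNNNGAA). NFAT and AP-1 are families of factors activated by the T cell receptor, and STAT factors act below cytokine receptors.
Ifng (chr10:118440796-118441045, plus strand): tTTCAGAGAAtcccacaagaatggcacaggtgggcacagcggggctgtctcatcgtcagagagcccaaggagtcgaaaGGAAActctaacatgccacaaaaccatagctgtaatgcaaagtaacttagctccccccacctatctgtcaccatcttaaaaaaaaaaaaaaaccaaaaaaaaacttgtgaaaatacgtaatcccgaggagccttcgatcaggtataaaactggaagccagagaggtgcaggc
Gzmb (chr14:56262335-56262584, minus strand): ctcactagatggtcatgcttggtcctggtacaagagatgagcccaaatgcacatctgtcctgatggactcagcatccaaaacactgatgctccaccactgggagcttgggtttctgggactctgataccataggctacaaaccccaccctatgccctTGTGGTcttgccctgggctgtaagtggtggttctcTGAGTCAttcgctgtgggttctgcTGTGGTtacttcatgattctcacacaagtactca
Il12rb2 (chr6:67376189-67376438, minus strand): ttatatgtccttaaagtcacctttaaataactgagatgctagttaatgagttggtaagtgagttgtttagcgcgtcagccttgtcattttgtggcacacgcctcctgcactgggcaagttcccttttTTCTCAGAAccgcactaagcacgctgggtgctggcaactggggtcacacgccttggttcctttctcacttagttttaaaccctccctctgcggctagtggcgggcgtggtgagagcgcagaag
Tbx21 (chr11:97115332-97115581, minus strand): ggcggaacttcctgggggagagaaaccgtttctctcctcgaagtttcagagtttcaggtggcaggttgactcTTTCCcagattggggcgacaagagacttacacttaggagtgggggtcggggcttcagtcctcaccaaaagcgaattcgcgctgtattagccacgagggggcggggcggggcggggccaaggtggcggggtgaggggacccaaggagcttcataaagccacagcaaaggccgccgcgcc
Eomes (chr9:118477939-118478188, plus strand): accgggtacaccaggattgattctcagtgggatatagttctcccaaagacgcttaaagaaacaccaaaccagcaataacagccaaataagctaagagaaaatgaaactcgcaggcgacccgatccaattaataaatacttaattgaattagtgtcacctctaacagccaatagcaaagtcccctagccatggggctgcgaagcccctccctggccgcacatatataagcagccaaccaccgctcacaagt
In the Gzmb window the Runx core matched 2 times, beginning 93 and 34 bases before the start, with an AP-1 match between them that begins at 58 bases. The Ifng window held a STAT match 249 bases and an NFAT match 172 bases before the start. The Il12rb2 window held 1 STAT match, at 123 bases, and the Tbx21 window 1 NFAT match on the opposite strand, at 178 bases. In the Eomes window no motif matched. Among the windows of the members that are not printed, the Runx core matched in those of Cxcr3 and Nkg7 and in 1 of the Runx3 windows, so that 4 of 8 members held it, and the T-box site matched in that of Nkg7 alone. Windows of the same length in all 32851 promoters of the table held the Runx core in 14%, the T-box site in 3.33%, the NFAT core in 55.6%, the AP-1 site in 6.75% and the STAT site in 7.02%. In the Nkg7 window the NFAT and STAT matches share bases. These matches describe the letters of a short window. The GENCODE start lies 74 bases after the RefSeq start for Gzmb and 23 bases after it for Eomes. For Cxcr3 and Nkg7 it lies before the RefSeq start (offsets of -122 and -65 bases). The Runx match of Cxcr3, 110 bases before the RefSeq start, and the T-box match of Nkg7, 13 bases before it, thus lie after the GENCODE start.

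Library totals ranged from 2352800 to 6244279 counts, and a count of 3 in a library, used as the floor, corresponds to between 1.85 and 4.28 normalised counts. Normalised counts are counts divided by the size factor of the library, and they are compared within a gene and not between genes, since 3' counts depend on the transcript end. Two-group differences are log2 fold changes of normalised counts, shrunk toward 0, with their standard error (SE). Calls needed an adjusted p (DESeq2, Benjamini-Hochberg) under 0.05 together with a shrunken log2 fold change beyond 1 in either direction. In these bulk samples, fewer cells of a type and less RNA per cell cannot be told apart. Replicate 3 of the 0.8 µg 12 h group differed more from its group than others did, with a mean chi-square per gene of 14.8 and 14.4 against the remaining libraries of that group, which differed from each other by 3.35. For Ifng and Nkg7, replicate 1 of the 80 µg 4 h group had the highest count of all 21 libraries, and values of these genes at 4 h whose size or call it changed most are also given without it.

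At 4 h, most of the members were higher with the high dose, and Eomes was lower. The higher members were the Th1 factor Tbx21, the cytokine Ifng, the receptor chain Il12rb2, the protease Gzmb, the chemokine receptor Cxcr3 and the granule gene Nkg7. The members were chosen with earlier results of these data known, so their counts of calls are a description and not a test. In the comparison of 80 µg with 0.8 µg at 4 h, 7 of 8 members were called, against 5.85% of all genes tested. Of these, 6 were called higher, against 3.12% of all genes tested, and 1 was called lower, against 2.74%. At 12 h, 4 members were called (2.79% of all genes), 3 higher (1.83%) and 1 lower (0.96%). At 24 h there were again 4 (1.56% of all genes), 3 higher (0.89%) and 1 lower (0.673%). Tbx21 and Il12rb2 were called higher and Eomes lower at each of the 3 times, while Runx3 was called at none. The median log2 fold change of the 8 members was 2.85 at 4 h, 0.42 at 12 h and 1.11 at 24 h, beside medians of -0.02, 0.01 and 0.02 over all genes tested.

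**Figure D1:**
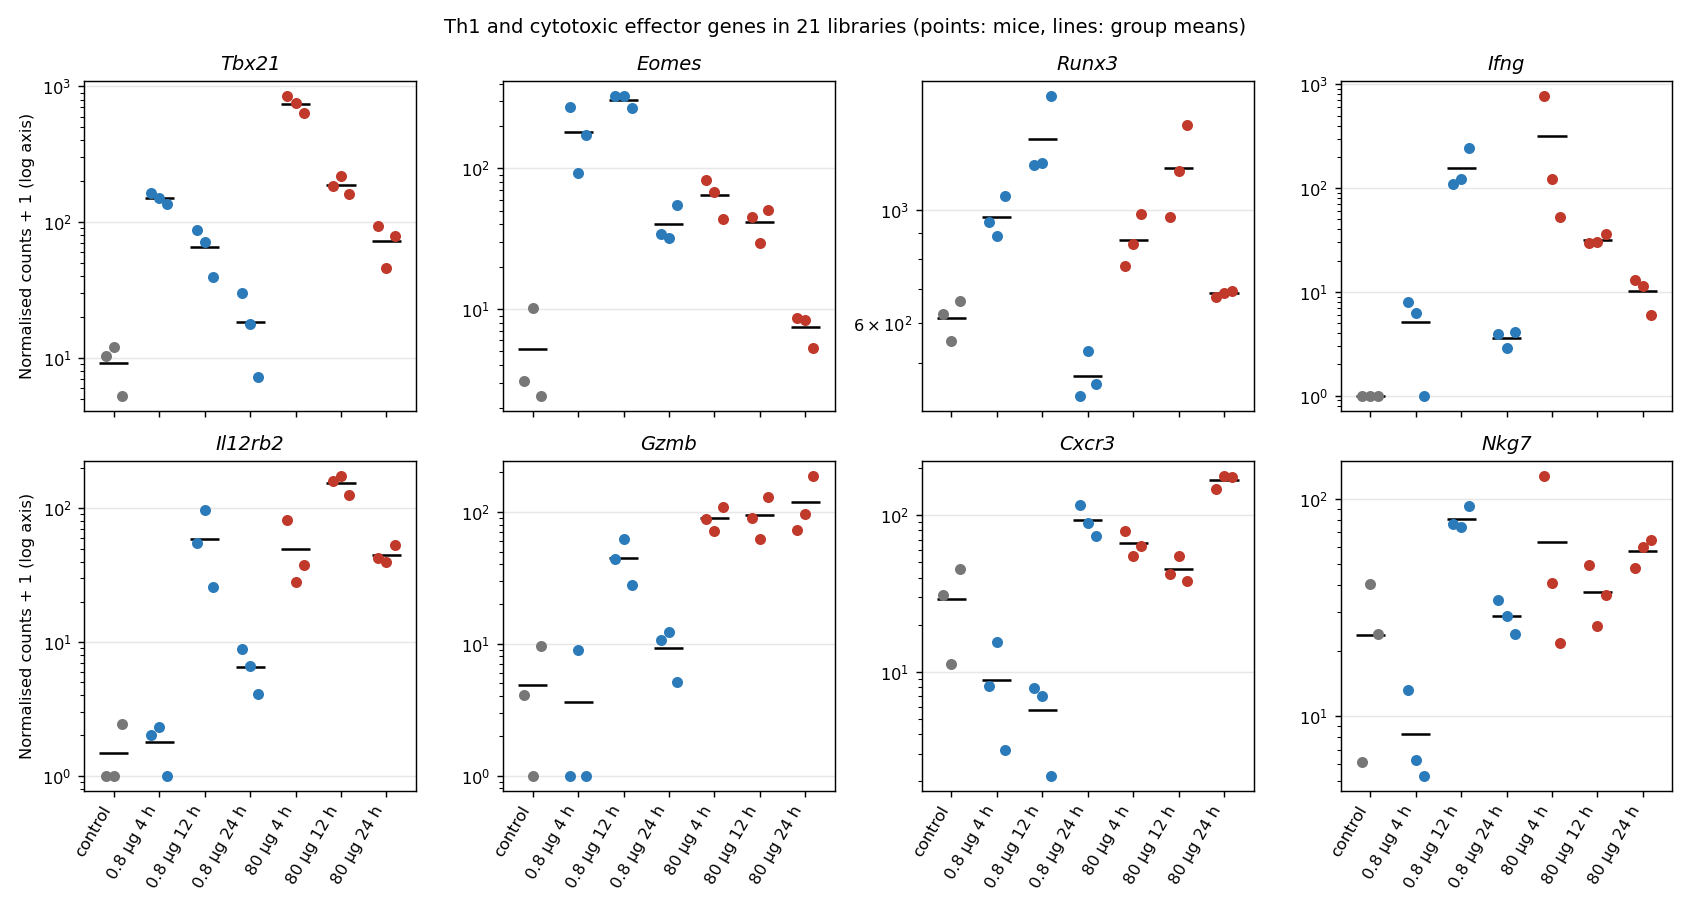
Normalised counts plus 1 on a log axis (each panel has its own range) for the 8 members in every library, grouped as control, 0.8 µg and 80 µg at 4 h, 12 h and 24 h; points are mice and lines are group means. Tbx21 peaks at 4 h with 80 µg at a mean of 745 normalised counts, Eomes peaks at 12 h with 0.8 µg at 305, and Ifng has 0 counts in each of the 3 control libraries.

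**Figure D2:**
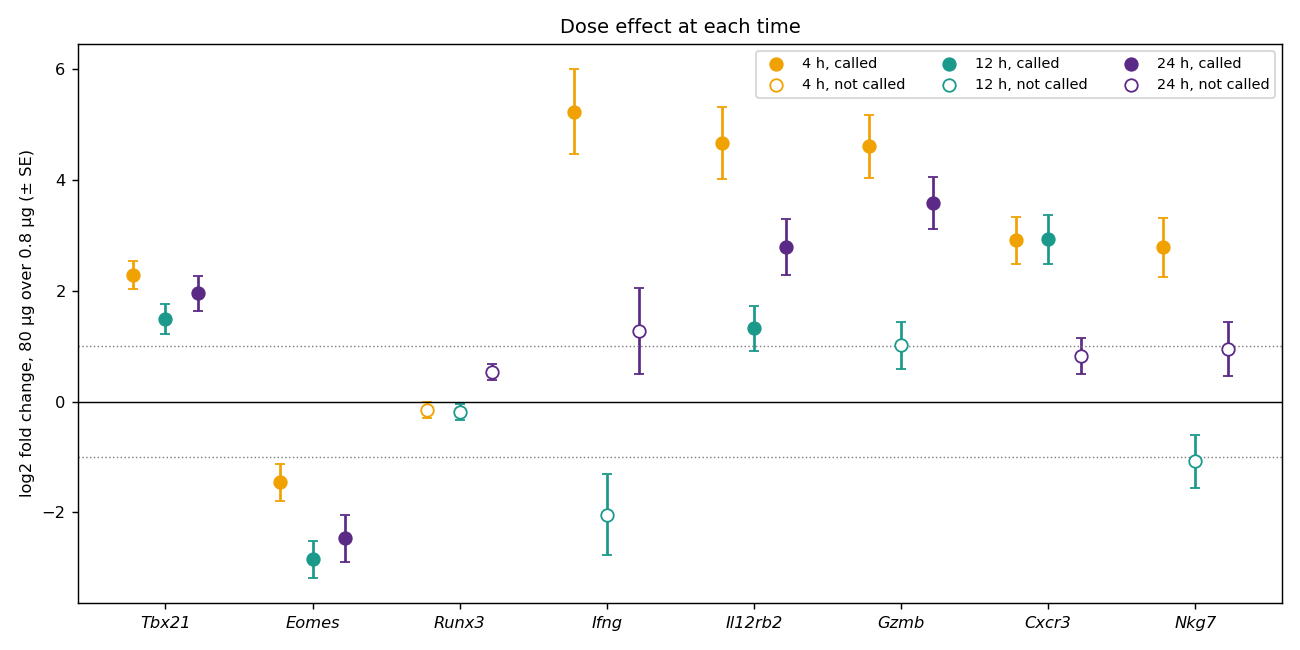
Shrunken log2 fold change of 80 µg over 0.8 µg with its SE (vertical axis) for each member at 4 h, 12 h and 24 h; filled points were called, open points were not, and dotted lines mark the fold change threshold of 1. Eomes lies below 0 at each time, Tbx21 above it, and Ifng moves from 5.23 at 4 h to -2.04 at 12 h.

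The lineage factors are described first. In the control libraries Tbx21 had 9.28, 11.2 and 4.28 normalised counts. After 0.8 µg it had 164, 150 and 135 at 4 h, 86.3, 70.0 and 38.7 at 12 h, and 29.2, 16.8 and 6.19 at 24 h. After 80 µg it had 848, 751 and 636 at 4 h, 184, 218 and 161 at 12 h, and 92.0, 44.9 and 78.3 at 24 h. At each time every 80 µg library was above every 0.8 µg library, and within each dose the 3 times did not overlap. The 80 µg 12 h libraries overlapped with the 0.8 µg 4 h libraries, and the 80 µg 24 h libraries with those of 0.8 µg at 12 h. The log2 fold change between doses was 2.28 (SE 0.25, adjusted p = 4.22e-17) at 4 h, 1.49 (SE 0.27, adjusted p = 2.19e-06) at 12 h and 1.95 (SE 0.32, adjusted p = 1.57e-07) at 24 h. Whether the dose effect on this factor differed between times was tested with a likelihood ratio test of the interaction of dose and time, and it did not pass (adjusted p = 0.342). The pairwise changes of the dose effect were -0.80 (SE 0.38) from 4 h to 12 h and 0.50 (SE 0.43) from 12 h to 24 h, neither called. Without 0.8 µg 12 h replicate 3 the first of these was called (-1.04, adjusted p = 0.0355). Compared with the control, the log2 fold change was 3.93, 2.76 and 0.92 with 0.8 µg and 6.21, 4.25 and 2.88 with 80 µg at 4 h, 12 h and 24 h. Of these 6 comparisons, the one not called was 0.8 µg at 24 h (adjusted p = 0.0507), where the libraries overlapped with the control. That comparison was called without 0.8 µg 24 h replicate 3 (1.31, adjusted p = 0.00534) and without control replicate 2 (1.05, adjusted p = 0.0484). Tbx21 fell from 4 h to 12 h and again from 12 h to 24 h at both doses, by 1.17 and 1.84 with 0.8 µg and by 1.96 and 1.38 with 80 µg. Without 0.8 µg 12 h replicate 3, the first of these log2 changes was -0.93 and under the fold change threshold.

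Eomes was lower with the high dose at each time, where the other T-box factor was higher. It had 2.06, 9.13 and 1.43 normalised counts in the control libraries. With 0.8 µg it had 272, 92.2 and 173 at 4 h, 325, 323 and 265 at 12 h, and 33.1, 30.8 and 53.7 at 24 h. With 80 µg the values were 82.2, 66.8 and 42.9 at 4 h, 43.8, 28.6 and 49.6 at 12 h, and 7.67, 7.36 and 4.31 at 24 h. Every 80 µg library was below every 0.8 µg library of the same time, and at 24 h the 80 µg libraries overlapped with the control. The log2 fold change between doses was -1.46 (SE 0.33, adjusted p = 0.000231) at 4 h, -2.84 (SE 0.33, adjusted p = 8.85e-15) at 12 h and -2.47 (SE 0.42, adjusted p = 1.08e-06) at 24 h. In the likelihood ratio test the interaction had an adjusted p of 0.0585, and edgeR gave 0.0253. It also passed without 0.8 µg 4 h replicate 1 (0.00287), 80 µg 4 h replicate 3 (0.0246) or 80 µg 12 h replicate 3 (0.0486). The dose effect at 12 h was lower than at 4 h by 1.42 on the log2 scale, with an adjusted p of 0.0481 that rose above the threshold in 8 of the 12 fits that left out 1 library of these groups (0.0638 to 0.174), and also with the replicate number as a block (0.0660). Against the control, Eomes was higher by 4.96, 5.71 and 2.82 with 0.8 µg at 4 h, 12 h and 24 h and by 3.50 and 2.87 with 80 µg at 4 h and 12 h, all called. With 80 µg at 24 h the log2 fold change was 0.36 (SE 0.52, adjusted p = 0.556). Between 12 h and 24 h Eomes fell at both doses, by 2.89 with 0.8 µg and by 2.51 with 80 µg. From 4 h to 12 h it did not pass the test at either dose (0.75 with 0.8 µg, adjusted p = 0.0504, and -0.63 with 80 µg, adjusted p = 0.128). Without 0.8 µg 4 h replicate 1, which had the highest Eomes count of its group, the first of these was called (1.20, adjusted p = 0.00183).

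Some markers of other cells moved with Eomes at some of the times and are given here as values. The cells were sorted as CD4+ T cells and by Timer expression, a sort aimed at leaving out CD8 T cells, NK cells, B cells and gamma delta T cells that lack CD4. How far it did so was not tested here. Counts scaled to the library total (CPM), summed over the CD8 genes Cd8a and Cd8b1, were 43.6 to 51.3 in the 0.8 µg 12 h libraries and 13.1 to 22.7 in the 80 µg 12 h libraries, with 31.1 to 47.6 in the control. At 24 h this sum was 34.3 to 40.9 with 0.8 µg and 20.1 to 28.8 with 80 µg. At 4 h this sum overlapped between doses (15.2 to 30.9 with 0.8 µg against 20.3 to 22.8 with 80 µg). Cd8a alone had 14.3 to 17.8 CPM in the 0.8 µg 12 h libraries, 3.84 to 3.96 at 24 h with the same dose, and at most 2.98 CPM in the libraries of the other 5 groups. The gamma delta T cell receptor gene Trdc was higher with 0.8 µg than with 80 µg at each time, at 13.7 to 18.1 against 2.19 to 6.16 CPM at 4 h, 9.38 to 9.82 against 1.74 to 4.04 at 12 h, and 8.02 to 10.03 against 2.24 to 4.64 at 24 h. The control had 15.4 to 25.9 CPM of Trdc and the lowest mean of Eomes. The other genes of the same marker list, Zbtb16 and Tcrg-C1, had at most 5 and 3 counts in any library. Defining receptors of NK cells were near 0, with at most 2 counts of Ncr1 in any library and a sum over 8 receptor genes of 0 to 2.44 CPM, except for 5.35 to 7.39 CPM in the 0.8 µg 24 h libraries. The list of regulatory T cells, which the sort keeps, holds 2 genes that differed in pattern. Ikzf2 had 15.8 to 21.2 CPM with 0.8 µg and 19.7 to 27.2 CPM with 80 µg at 4 h, where the doses overlapped, and was lower with 80 µg at 12 h (31.1 to 42.8 against 109 to 132 CPM) and at 24 h (133 to 160 against 302 to 541 CPM). Foxp3, the defining factor of these cells, was higher in every 80 µg library at 4 h (3.85 to 5.77 against 0.574 to 1.84 CPM with 0.8 µg), and the doses overlapped at 12 h (5.05 to 8.68 against 0.957 to 6.33 CPM) and at 24 h (20.2 to 25.5 against 12.6 to 55.3 CPM). The part of these cells in the dose effect on Eomes was not tested.

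**Figure D3:**
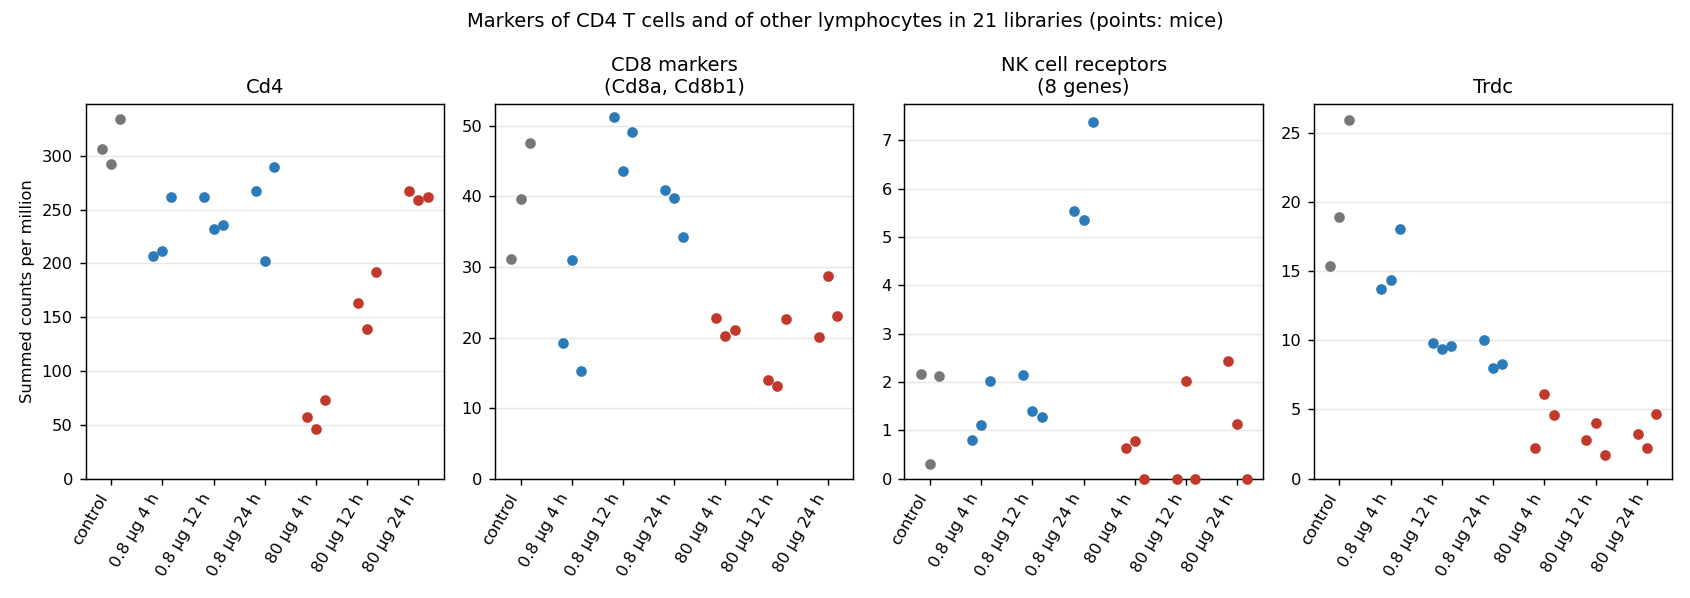
CPM (vertical axis) of Cd4, of Cd8a and Cd8b1 summed, of 8 NK cell receptor genes summed and of Trdc (4 panels, each with a linear axis from 0) in every library by group. The CD8 sum is 43.6 to 51.3 in the 0.8 µg 12 h libraries and 13.1 to 22.7 in the 80 µg 12 h libraries, and the NK receptor sum stays at or under 7.39.

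Runx3 had the smallest dose effects. Its normalised counts were 624, 553 and 662 in the control, 946, 887 and 1066 with 0.8 µg at 4 h, and 775, 858 and 982 with 80 µg at 4 h. At 12 h it had 1227, 1237 and 1673 with 0.8 µg and 967, 1192 and 1468 with 80 µg. At 24 h the 0.8 µg libraries had 431, 529 and 454 and the 80 µg libraries 674, 687 and 694. The doses overlapped at 4 h and 12 h and did not overlap at 24 h, where the 0.8 µg libraries were also below the control. The log2 fold change between doses was -0.15 (SE 0.14, adjusted p = 0.628) at 4 h, -0.19 (SE 0.14, adjusted p = 0.562) at 12 h and 0.54 (SE 0.14, adjusted p = 0.00592) at 24 h, the last under the fold change threshold. The interaction of dose and time passed the likelihood ratio test (adjusted p = 0.00675), beside 10.4% of all genes tested. The dose effect was higher at 24 h than at 12 h by 0.73 (SE 0.20, adjusted p = 0.0163) and than at 4 h by 0.69 (SE 0.20, adjusted p = 0.0137). The first of these was not called without replicate 1 of 0.8 µg at 24 h (adjusted p = 0.0731) or of 80 µg at 12 h (0.0654), and the second without 0.8 µg 4 h replicate 3 (0.0656) or 80 µg 4 h replicate 1 (0.0515). Against the control, Runx3 was called with 0.8 µg at 12 h (1.16, SE 0.14) and lay just under the threshold with 80 µg at 12 h (0.98, SE 0.14). The latter was called in edgeR (1.01), with TMM scaling (1.01), with only the samples compared (1.06), without 80 µg 12 h replicate 1 (1.11) and without control replicate 3 (1.03). From 12 h to 24 h it fell by 1.54 with 0.8 µg, which was called, and by 0.81 with 80 µg, under the threshold.

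The cytokine and the receptor chain that lead to it follow. Ifng had 0 counts in the 3 control libraries, which allows up to 3.09, 3.04 and 4.28 normalised counts at the floor of 3 counts. With 0.8 µg it had 7.07, 5.27 and 0 normalised counts at 4 h, 110, 120 and 241 at 12 h, and 2.92, 1.86 and 3.10 at 24 h. With 80 µg it had 772, 122 and 52.3 at 4 h, 28.3, 29.3 and 35.0 at 12 h, and 12.1, 10.3 and 4.93 at 24 h. The highest levels were thus at 4 h with the high dose and at 12 h with the low dose, and these groups overlapped with each other. At 4 h and 24 h every 80 µg library was above every 0.8 µg library, and at 12 h every 80 µg library was below. The log2 fold change between doses was 5.23 (SE 0.76, adjusted p = 3.61e-09) at 4 h, and 4.05 (adjusted p = 3.75e-10) without 80 µg 4 h replicate 1. With only the 6 samples compared, this value was shrunk to 0.85 (adjusted p = 0.000592) and no longer called. At 12 h it was -2.04 (SE 0.73, adjusted p = 0.0893) and not called. This last value depended on the fit. It was called in edgeR (-2.32, adjusted p = 0.00134), with only the 6 samples compared (-1.74, adjusted p = 3.63e-11) and, in an alternative chosen after seeing the data, when 80 µg 4 h replicate 1 was left out of the fit that shares 1 spread per gene (-2.26, adjusted p = 5.94e-06). Over all alternatives tried its adjusted p ranged from 3.63e-11 to 0.284, with a negative sign in each. At 24 h the 0.8 µg libraries had 2 or 3 counts each, and the ratio of the doses was 3.25 (95% counting interval 1.47 to 8.14, adjusted p = 0.386).

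The dose effect on Ifng differed between 4 h and 12 h by -8.61 on the unshrunken log2 scale (SE 1.30, adjusted p = 4.53e-09), beside 7.14% of all genes tested. Over the fits that left out 1 library this value ranged from -9.32 to -6.75, the latter without 80 µg 4 h replicate 1, and it was called in each. Between 4 h and 24 h it differed by -4.48 (SE 1.41, adjusted p = 0.0256), a call that was lost in edgeR (adjusted p = 0.121) and without any 1 of 5 libraries, namely replicates 1 and 3 of 0.8 µg at 24 h, replicate 3 of 0.8 µg at 4 h, replicate 3 of 80 µg at 24 h and replicate 1 of 80 µg at 4 h (0.0575 to 0.0705). Without the last of these libraries the difference was -2.65. Between 12 h and 24 h it differed by 4.13 (SE 1.35, adjusted p = 0.0692), and edgeR called this change (adjusted p = 0.0491), as did the fit without 80 µg 4 h replicate 1 (adjusted p = 0.000133). Against the control floor of 3 counts per library, Ifng with 0.8 µg was at least 45.2-fold higher at 12 h. With 80 µg the bound on the group mean was at least 90.8-fold higher at 4 h, and at least 25.1-fold higher without 80 µg 4 h replicate 1. It was at least 8.89-fold higher at 12 h and at least 2.62-fold higher at 24 h. With 0.8 µg at 4 h it was at least 1.18-fold higher (adjusted p = 0.0103), and this call was lost in edgeR (0.0829), with only the samples compared (0.0643) and without 0.8 µg 4 h replicate 1 (0.0609), where the group mean was under the control floor. Ifng with 0.8 µg rose from 4 h to 12 h by 4.34 (SE 0.76) and was 57.1-fold lower at 24 h than at 12 h (95% counting interval 28.8 to 133). With 80 µg it fell from 4 h to 12 h by 2.93 (SE 0.73, adjusted p = 0.000487), and without 80 µg 4 h replicate 1 it fell by 1.39, which was still called. From 12 h to 24 h the change with 80 µg was -1.47 (SE 0.75, adjusted p = 0.0973), called in edgeR (adjusted p = 0.0180), with only the samples compared (adjusted p = 0.000818) and without 80 µg 4 h replicate 1 (adjusted p = 0.000937).

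Il12rb2, the signalling chain of the interleukin-12 receptor, had 0, 0 and 1 raw counts in the control and 1, 1 and 0 with 0.8 µg at 4 h. With 80 µg at 4 h it already had 81.0, 27.1 and 36.9 normalised counts. At 12 h it had 53.9, 96.3 and 24.7 with 0.8 µg and 159, 174 and 125 with 80 µg, and at 24 h 7.79, 5.59 and 3.10 against 41.6, 39.0 and 51.8. The doses overlapped at none of the 3 times, and both doses had their highest mean at 12 h. At 4 h the ratio of the doses was 61.6 (95% counting interval 16.7 to 514, adjusted p = 1.75e-06). The log2 fold change between doses was 1.33 (SE 0.41, adjusted p = 0.0250) at 12 h and 2.79 (SE 0.50, adjusted p = 6.40e-06) at 24 h. The call at 12 h was lost without any 1 of 4 libraries, replicates 1 and 3 of 0.8 µg and replicates 1 and 2 of 80 µg (log2 fold change 1.03 to 1.31, adjusted p = 0.102 to 0.158), and with only the samples compared (0.97). The dose effect fell from 4 h to 12 h by 4.63 on the unshrunken log2 scale (SE 1.18, adjusted p = 0.00291), and the interaction had an adjusted p of 0.000105. Compared with the control, where all libraries had 0 or 1 count, the ratios were 169 (95% counting interval 30.0 to 6719) with 0.8 µg at 12 h and 122 (21.6 to 4865), 411 (73.5 to 16283) and 119 (21.2 to 4742) with 80 µg at 4 h, 12 h and 24 h. With 0.8 µg at 24 h the ratio was 14.7 (2.31 to 615, adjusted p = 0.0131), and this call was lost without control replicate 1 (0.0856), without control replicate 2 (0.0884) and with only the samples compared (0.0654). With 80 µg the level rose from 4 h to 12 h by 1.61 (SE 0.41) and fell from 12 h to 24 h by 1.72 (SE 0.41). With 0.8 µg it was 85.3 times as high at 12 h as at 4 h (95% counting interval 23.3 to 709) and fell by 3.19 (SE 0.50) to 24 h.

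Gzmb stood at 3, 0 and 6 counts in the control and at 0, 6 and 0 counts with 0.8 µg at 4 h. With 80 µg at 4 h it had 88.0, 70.7 and 108 normalised counts. The 12 h libraries had 43.1, 61.7 and 27.0 with 0.8 µg and 88.6, 60.9 and 129 with 80 µg, and those of 24 h 9.73, 11.2 and 4.13 against 71.2, 94.9 and 186. With 80 µg the 3 times overlapped, whereas with 0.8 µg the 12 h libraries were above those of 4 h and 24 h. The doses did not overlap at 4 h and 24 h and overlapped at 12 h. The log2 fold change between doses was 4.61 (SE 0.57, adjusted p = 1.87e-11) at 4 h and 1.02 (SE 0.42, adjusted p = 0.158) at 12 h, which was not called. It was 3.59 (SE 0.47) at 24 h. With only the samples compared, the 4 h value was shrunk to 0.83 (adjusted p = 0.00818) and no longer called. Without 0.8 µg 4 h replicate 2 it was 5.66. The dose effect was smaller at 12 h than at 4 h by 4.20 on the unshrunken log2 scale (SE 0.85, adjusted p = 4.62e-05). When 1 library was left out, this difference ranged from -7.79, without 0.8 µg 4 h replicate 2 (the only library of its group with any Gzmb count), to -3.54, and was called in each of these fits. The dose effect was larger at 24 h than at 12 h by 2.74 (SE 0.68, adjusted p = 0.00537), beside 2.64% of all genes tested. With the replicate number as a block this last call was lost (adjusted p = 0.200). It was also lost without any 1 of 4 libraries, replicate 1 of each 12 h group, replicate 1 of 0.8 µg at 24 h and replicate 1 of 80 µg at 4 h (adjusted p = 0.130 to 0.195), and Gzmb received no adjusted p without replicate 3 of 0.8 µg at 12 h or of 80 µg at 24 h. Compared with the control, Gzmb was called higher with 80 µg at each time, by 4.20, 4.26 and 4.59, and with 0.8 µg at 12 h by 3.24 (SE 0.55, adjusted p = 6.69e-08). The values for 0.8 µg at 4 h (-0.41, adjusted p = 0.583) and 24 h (1.00, adjusted p = 0.150) were not called. Without control replicate 3, which had 6 counts, the 24 h value was called (1.58, adjusted p = 0.0411), and without 0.8 µg 4 h replicate 2 the 4 h value was called lower (-1.41, adjusted p = 0.0181). Between times, 0.8 µg libraries rose by 3.65 (SE 0.58) from 4 h to 12 h and fell by 2.23 (SE 0.48) to 24 h. With 80 µg the changes were 0.06 (SE 0.42) and 0.33 (SE 0.41).

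Nkg7 had 5.15, 39.5 and 22.8 normalised counts in the control. With 0.8 µg it had 12.1, 5.27 and 4.32 at 4 h, 75.5, 73.0 and 91.6 at 12 h, and 33.1, 27.97 and 22.7 at 24 h. With 80 µg it had 126, 39.7 and 20.6 at 4 h, 48.4, 24.9 and 35.0 at 12 h, and 47.1, 58.9 and 63.5 at 24 h. As for Ifng, the 80 µg libraries were all above those of 0.8 µg at 4 h and 24 h and all below them at 12 h. Between doses the log2 fold change was 2.79 (SE 0.54, adjusted p = 8.71e-06) at 4 h, and 1.86 (adjusted p = 0.00780) without 80 µg 4 h replicate 1. At 12 h it was -1.08 (SE 0.48, adjusted p = 0.206) and at 24 h 0.95 (SE 0.49, adjusted p = 0.303), neither called. The difference between the 4 h and the 12 h dose effect was -4.22 (SE 0.79, adjusted p = 7.70e-06), and -3.18 without 80 µg 4 h replicate 1, still called. The interaction of dose and time had an adjusted p of 1.41e-06. From 12 h to 24 h the dose effect changed by 2.17 (SE 0.74, adjusted p = 0.0920), called in edgeR (0.0441) and without 80 µg 4 h replicate 1 (0.0200). From 4 h to 24 h it changed by -2.05 (SE 0.80, adjusted p = 0.106), called without 0.8 µg 4 h replicate 1 (0.0499) or 80 µg 4 h replicate 3 (0.0240). Compared with the control, Nkg7 was higher with 0.8 µg at 12 h (1.71, SE 0.50, adjusted p = 0.00168). Calls of higher counts with 80 µg at 4 h (1.35, adjusted p = 0.0136) and 24 h (1.24, adjusted p = 0.0359) rested on single libraries. The 4 h call was lost without 80 µg 4 h replicate 1 (0.40, adjusted p = 0.502) and without control replicate 1 (0.91, adjusted p = 0.115), and with only the samples compared (adjusted p = 0.203). The 24 h call was lost without any 1 of replicates 2 and 3 of 80 µg at 24 h and replicates 1 and 3 of the control (adjusted p = 0.0712 to 0.215). Lower counts with 0.8 µg at 4 h (-1.43, adjusted p = 0.0186) were not called without control replicate 2 (-0.81, adjusted p = 0.289), without 0.8 µg 4 h replicates 2 or 3 (0.0686 and 0.0906) or with only the samples compared (0.0572), and these libraries overlapped with the control. With 80 µg at 12 h the change of 0.63 (adjusted p = 0.300) was called without control replicate 2 (1.26, adjusted p = 0.0434). Over time with 0.8 µg, Nkg7 rose by 3.14 (SE 0.54, adjusted p = 9.52e-08) to 12 h and fell by 1.42 (SE 0.49, adjusted p = 0.0107) to 24 h, the latter not called without 0.8 µg 24 h replicate 3 (adjusted p = 0.0512). The changes with 80 µg were -0.73 to 12 h, called without 80 µg 4 h replicate 3 (-1.11, adjusted p = 0.0483), and 0.61 to 24 h.

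At 12 h Ifng and Nkg7 were lower in every 80 µg library than with 0.8 µg. Neither difference was called (adjusted p = 0.0893 and 0.206 in DESeq2). The CD8 sum at 12 h was lower with 80 µg too, at the values given beside Eomes. At 24 h the CD8 sum was again lower with 80 µg (20.1 to 28.8 against 34.3 to 40.9 CPM). Ifng and Nkg7 were then higher in every 80 µg library, and again neither was called. At 4 h the CD8 sum was 15.2 to 30.9 CPM with 0.8 µg and 20.3 to 22.8 CPM with 80 µg, and these ranges overlapped. At this time the sum was mostly Cd8b1, with 49 to 80 counts beside 4 of Cd8a in the 0.8 µg libraries. In the 80 µg libraries Cd8b1 had 71 to 85 counts beside 2 to 6 of Cd8a. The part of CD8 cells in the Ifng and Nkg7 differences was not tested. For Gzmb, the NK receptor sum was 0.79 to 2.01 CPM with 0.8 µg and 0 to 0.769 CPM with 80 µg at 4 h, and 5.35 to 7.39 against 0 to 2.44 CPM at 24 h. These 4 h sums rest on 3 to 7 counts against 0 to 3. Gzma, another granzyme and a gene of the same NK cell list, had 0.287 to 1.58 CPM with 0.8 µg and 1.38 to 5.00 CPM with 80 µg at 4 h, and with it the summed list overlapped between doses (1.84 to 2.37 against 1.38 to 5.63 CPM). At 24 h Gzma had 8.45 to 12.9 CPM with 0.8 µg and 3.52 to 16.8 CPM with 80 µg. The part of these genes' cells in the Gzmb differences was not tested. The regulatory T cell genes are given beside Eomes. In every library Cd4 was detected, at 207 to 262 CPM with 0.8 µg and 46.4 to 73.4 CPM with 80 µg at 4 h.

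Cxcr3 had its own order of groups. It had 29.9, 10.1 and 44.3 normalised counts in the control, 7.07, 14.5 and 2.16 with 0.8 µg at 4 h and 6.86, 6.02 and 1.17 with 0.8 µg at 12 h. At 24 h with 0.8 µg it had 116, 88.6 and 72.3. The 80 µg libraries had 78.7, 54.2 and 62.6 at 4 h, 41.1, 54.3 and 36.9 at 12 h, and 147, 177 and 174 at 24 h. At both doses the 24 h libraries were the highest, and the doses overlapped at none of the 3 times. Between doses the log2 fold change was 2.91 (SE 0.43, adjusted p = 1.09e-09) at 4 h, 2.93 (SE 0.45, adjusted p = 2.48e-08) at 12 h and 0.83 (SE 0.32, adjusted p = 0.118) at 24 h. The dose effect was smaller at 24 h than at 12 h by 2.32 on the unshrunken log2 scale (SE 0.60, adjusted p = 0.00833) and than at 4 h by 2.25 (SE 0.57, adjusted p = 0.00262), beside 7.18% of all genes tested. From 4 h to 12 h it changed by 0.08 (SE 0.68, adjusted p = 0.976). Against the control, Cxcr3 with 0.8 µg was lower at 4 h (-1.71, SE 0.44, adjusted p = 0.000346) and 12 h (-2.26, SE 0.46, adjusted p = 5.06e-06) and higher at 24 h (1.70, SE 0.36, adjusted p = 1.65e-05). With 80 µg it was higher at 4 h (1.21, SE 0.36, adjusted p = 0.00201) and 24 h (2.53, SE 0.35, adjusted p = 1.52e-11), and 0.67 at 12 h was not called (adjusted p = 0.114). Control replicate 2 had the lowest count of its group, and without it the 80 µg 4 h value was 0.81, under the threshold. Control replicate 3 had the highest count, and without it the 80 µg 12 h value was called (1.09, adjusted p = 0.0122). Cxcr3 rose from 12 h to 24 h by 3.96 (SE 0.44) with 0.8 µg and by 1.86 (SE 0.33) with 80 µg. Markers of other cells were also higher at 24 h than at 12 h. The sum of the regulatory T cell genes Foxp3 and Ikzf2 went from 110 to 136 CPM at 12 h to 315 to 596 CPM at 24 h with 0.8 µg, and from 37.9 to 51.5 CPM to 153 to 185 CPM with 80 µg. The B cell marker sum went from 33.5 to 85.3 CPM to 278 to 324 CPM with 0.8 µg, and from 37.5 to 78.9 CPM to 375 to 399 CPM with 80 µg. In the control, the B cell marker sum was 379 to 403 CPM. The part of either cell type in the rise of Cxcr3 was not tested.

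The count of members called against the control is set beside the share of all genes, and these comparisons share the same 3 control libraries. With 0.8 µg at 4 h, 5 members were called (40.7% of all genes), 3 higher (17.3%) and 2 lower (23.4%). At 12 h all 8 were called (37.7%), 7 higher (17.2%) and 1 lower (20.5%), and at 24 h 3 were called (17.3%), all higher (11.5%, with 5.84% of all genes lower). With 80 µg every member called was higher. They were 7 at 4 h (18.4% of all genes higher, 25.1% lower, 43.5% in all), 5 at 12 h (17.8% higher, 20.1% lower, 37.9% in all) and 6 at 24 h (12.3% higher, 7.91% lower, 20.2% in all). From 4 h to 12 h with 0.8 µg, 5 members were called (20.5%), 4 higher (12.6%) and 1 lower (7.98%). From 12 h to 24 h all 8 were called (26.6%), of which Cxcr3 was higher (17.1%) and 7 were lower (9.48%). With 80 µg, 3 were called from 4 h to 12 h (24.8%), 1 higher (15.7%) and 2 lower (9.1%), and 4 from 12 h to 24 h (27.2%), 1 higher (16.7%) and 3 lower (10.5%). The dose by time interaction was called for 6 members (10.4% of all genes tested), Runx3, Ifng, Il12rb2, Gzmb, Cxcr3 and Nkg7.

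The members were set beside other genes of the same programs, taken from lists written with earlier results of these data known. Of 29 genes of Th1 signalling and regulation, 26 received an adjusted p at 4 h. The 80 µg libraries had 11 of them higher (3.12% of all genes tested) and 2 lower (2.74%) by the call, and their median log2 fold change was 1.22 beside -0.02 for all genes tested. Ccl4, a chemokine gene, was higher by 4.54, at 431 ± 152 against 17.5 ± 14.1 normalised counts (SD, n = 3). At 12 h, 3 of 26 were called higher (1.83% of all genes) and 1 lower (0.96%), with a median of 0.10, and at 24 h 3 of 24 higher (0.89%) and 1 lower (0.673%), with a median of 0.17. Prdm1, the gene of the transcription factor Blimp-1, was higher with 80 µg at 12 h (99.0 ± 23.8 against 9.63 ± 6.26, log2 fold change 3.20) and at 24 h (43.1 ± 4.51 against 16.2 ± 7.75, log2 fold change 1.36). Il18rap, a chain of the interleukin-18 receptor, was higher with 80 µg at 24 h (89.2 ± 29.3 against 16.6 ± 2.03, log2 fold change 2.28). Ifngr2, a chain of the receptor for interferon gamma, was lower with 80 µg at 24 h (27.0 ± 3.33 against 61.8 ± 16.3, log2 fold change -1.17). The 24 h count of this list fell to 1 without any 1 of the 3 80 µg 24 h libraries and to 2 without replicate 1 or 2 of 0.8 µg. With only the samples compared it was 1 at 24 h and also 1 at 12 h, where the cytotoxic list likewise fell to 1.

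Of 28 genes of the cytotoxic machinery, 19 received an adjusted p at each time. At 4 h there were 3 higher and 3 lower calls (median 0.48), beside 3.12% and 2.74% of all genes tested. At 12 h there were 1 higher and 2 lower (median -0.02), beside 1.83% and 0.96%, and at 24 h 2 higher and 0 lower (median 0.06), beside 0.89% and 0.673%. The serine protease inhibitor genes Serpinb6b (461 ± 97.6 against 20.9 ± 8.24 normalised counts) and Serpinb9 (857 ± 193 against 43.4 ± 21.3) were higher at 4 h, by 4.38 and 4.19. Serpinb9 is known as an inhibitor of granzyme B, so its role is opposite to that of the granzymes on the list. Genes that were lower with 80 µg at 4 h were Crtam (80.5 ± 15.4 against 311 ± 57.8), a surface receptor of activated T cells, Fasl (96.4 ± 23.8 against 329 ± 14.6), the ligand of the death receptor Fas, and Cd226 (60.9 ± 11.7 against 189 ± 48.5), an activating receptor. Their log2 fold changes were -1.91, -1.75 and -1.60. Cd226 (-2.56) and Fasl (-1.21) were lower again at 12 h, where Srgn, the proteoglycan core of secretory granules, was higher (1.14). At 24 h Klrd1, the gene of the receptor chain CD94, was called higher, at 33.9 ± 4.31 against 8.78 ± 1.77 normalised counts (log2 fold change 1.88). The relatives of the T-box and Runx members were mostly at or near 0 counts, and 2 of 8 received an adjusted p at 4 h. Runx2, called higher at 4 h (1.89), was the single one called between doses at any time.

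**Figure D4:**
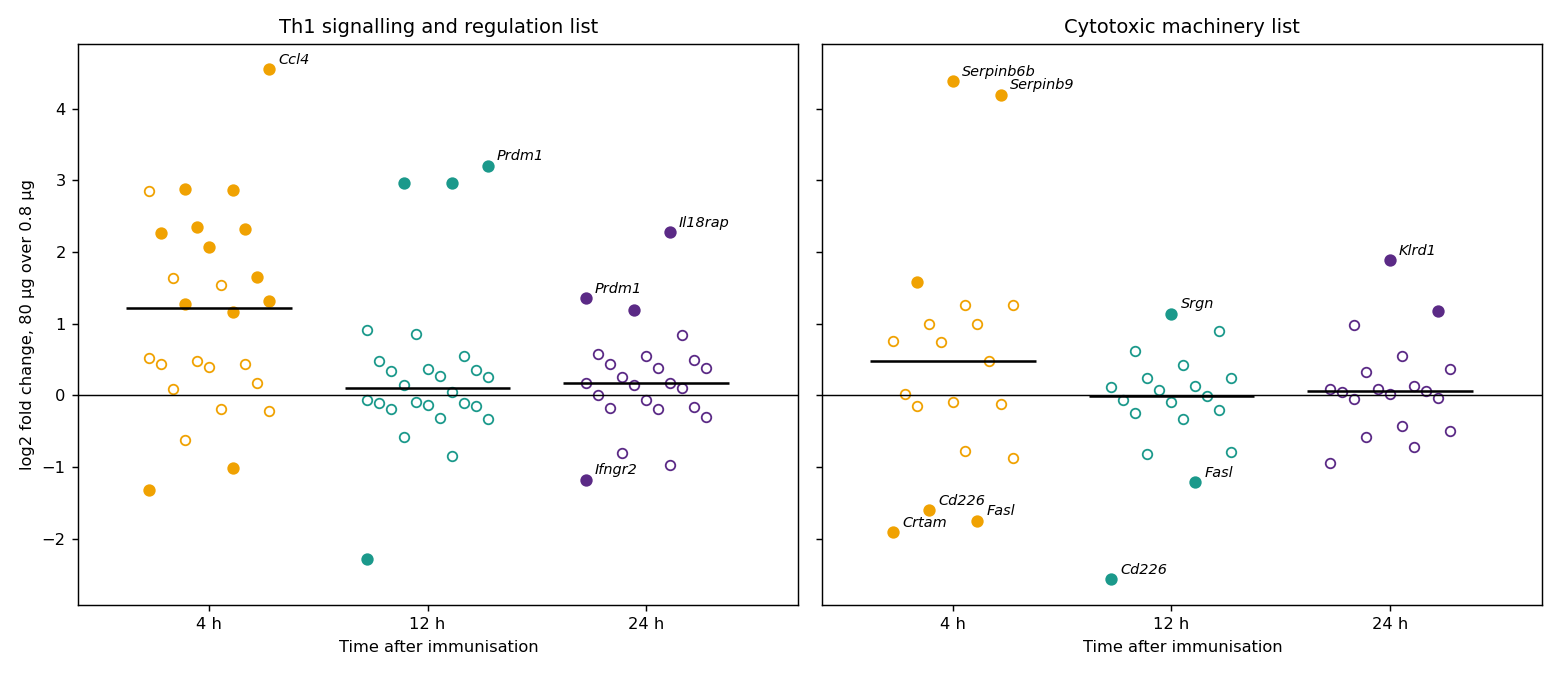
Shrunken log2 fold change of 80 µg over 0.8 µg (vertical axis) for each gene of the Th1 signalling and regulation list (left) and the cytotoxic machinery list (right) that received an adjusted p at 4 h, 12 h and 24 h; filled points were called, lines are list medians, and genes named in the text are labelled. The median of the Th1 list is 1.22 at 4 h and 0.10 at 12 h, and the cytotoxic list has called genes on both sides of 0 at 4 h and 12 h.

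Likeness of pattern was described by Pearson's r over the 21 samples of the deposited rlog values, among 8753 genes whose mean reached 20 normalised counts. All points share their libraries and groups, so r is a description. The genes most like Tbx21 were Hif1a (r = 0.93), Smad3 (0.93) and Sema7a (0.93), and those most like Eomes were Lad1 (0.93), Cd160 (0.92) and Agfg1 (0.92). Il12rb2 was most like Tgm2 (0.94), Serpinb6b (0.93) and Gzmb (0.91), and Gzmb in turn was most like Il12rb2 (0.91), Serpinb6b (0.90) and Gm14005 (0.86). These are the members that had another member among their 3 nearest genes. For Ifng the nearest were Lif (0.87), Serpinb9 (0.86) and Egln3 (0.85). Cxcr3 was nearest to Lpxn (0.96), Rgs1 (0.90) and Rab27a (0.90), and Runx3 to Aven (0.95), Coq5 (0.94) and Ubqln1 (0.93). The nearest genes of Nkg7 were farther away, with Anxa7 (0.78), Cd164 (0.74) and Rras2 (0.73). Within the members, r ranged from -0.69 between Eomes and Cxcr3 to 0.91 between Il12rb2 and Gzmb, and between Tbx21 and Eomes it was 0.39.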

How the data were processed

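RNA of sorted CD4+ T cells was measured in 21 libraries prepared with QuantSeq 3' mRNA forward kits. The authors made the deposited raw counts by merging sequencing lanes, trimming with Bbduk, aligning with STAR 2.5.2a to mm10 (GRCm38) and counting per gene with HTSeq; the annotation release and strand setting are not given in the sources used here. The deposited log2 values are the authors' regularised log (rlog) of these counts from DESeq2, and were used for likeness of pattern alone.

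The members and lists were chosen with earlier results of these data known. Counts of the 15300 genes with at least 10 counts over all samples were tested in R 4.3.3 with DESeq2 1.42.0, in a Wald test on all 21 samples with 1 coefficient per group. Log2 fold changes were moderated with DESeq2's normal prior. Calls needed an adjusted p under 0.05 and a log2 fold change beyond 1. Dose by time was tested on the 18 immunised samples with a likelihood ratio test, and the change of the dose effect between 2 times with unshrunken contrasts and the adjusted p alone. The p-values take the variation between mice of the same group as error. In the Wald test, 1 spread per gene was estimated over all 21 samples, so groups outside a comparison also bear on its p-value. In the likelihood ratio test it was estimated over the 18 immunised samples. Totals were 2352800 to 6244279 counts, and floors and intervals (95%, exact) cover counting error only.

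Named list genes were up to 3 with the largest fold change each way per dose comparison, among called genes whose mean reached 20 normalised counts; likeness was ranked by Pearson's r. Alternatives were edgeR 4.0.16, TMM scaling, no filter, adjusted p alone, unshrunken values, a replicate block, only the samples compared, and each library left out. Leaving 80 µg 4 h replicate 1 out of comparisons that do not include its group was chosen after seeing the data. The procedure was tested on simulated data. Promoters are from RefSeq.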

Additional observations from a re-analysis of the deposited data

Results flagged for a closer look

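The effect of dose differed between times for members in 4 tests in DESeq2, with p-values adjusted over all genes tested. The interaction of dose and time was called for 6 of 8 members (10.4% of all genes tested), with adjusted p-values of 3.74e-07 for Ifng, 7.94e-07 for Gzmb, 1.41e-06 for Nkg7, 3.46e-06 for Cxcr3, 0.000105 for Il12rb2 and 0.00675 for Runx3. Between 4 h and 12 h (7.14% of all genes), the dose effect fell for the cytokine Ifng (adjusted p = 4.53e-09), for Nkg7 (7.70e-06), for Gzmb (4.62e-05) and for Il12rb2 (0.00291). For Eomes the dose effect was already negative and became more so (shrunken values -1.46 at 4 h and -2.84 at 12 h, adjusted p of the change 0.0481). Most fits that left out 1 library of these groups lost this Eomes call. Between 12 h and 24 h (2.64%) the dose effect rose for Gzmb (0.00537) and Runx3 (0.0163) and fell for Cxcr3 (0.00833). Between 4 h and 24 h (7.18%) it fell for Cxcr3 (0.00262) and Ifng (0.0256) and rose for Runx3 (0.0137). With the replicate number as a block, the adjusted p of the Gzmb change between 12 h and 24 h was 0.200 and that of the Eomes change between 4 h and 12 h 0.0660, so that neither was called. Time and sorting gate cannot be told apart in each of these differences.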

How the results depend on the processing

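In DESeq2 with all samples, the number of members called stayed within 1.5 times under each alternative except for 2 counts and the fits that left out 1 library. Members called with 0.8 µg at 4 h against the control were 5, and 3 with only the samples compared. Members whose dose effect differed between 12 h and 24 h were 3, and 5 in edgeR. When 1 library was left out, that count ranged from 1 to 4, with 1 without 0.8 µg 12 h replicate 3, 0.8 µg 24 h replicate 1 or 80 µg 12 h replicate 1. Between 4 h and 24 h it ranged from 1 to 4 around 3, with 1 without 0.8 µg 4 h replicate 3 or 80 µg 4 h replicate 1. In these cases the cause was not tested, apart from the first of these fits, where 4 members received no adjusted p.

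Leaving out 1 library changed the sign in 20 fits of 10 results, and in none of these fits was the value called. Against the control, the log2 fold change ranged from -0.29 to 0.79 for Il12rb2 and from -1.41 to 0.20 for Gzmb (0.8 µg, 4 h), from -0.17 to 0.92 for Nkg7 (0.8 µg, 24 h) and from -0.050 to 0.96 for Eomes (80 µg, 24 h). With 80 µg it ranged from -0.28 to 0.26 for Gzmb and from -1.11 to 0.25 for Nkg7 from 4 h to 12 h, and from -0.18 to 0.67 for Gzmb from 12 h to 24 h. The change of the dose effect ranged from -0.21 to 0.12 for Runx3 and from -0.63 to 0.54 for Cxcr3 (4 h to 12 h), and from -0.68 to 0.29 for Tbx21 (4 h to 24 h). The cause was not tested.

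On average, same-numbered libraries deviated together little more than others (mean r 0.0053 over 63 pairs, against -0.0026 over 126). This mean takes many genes together, so it cannot decide whether replicate numbers paired the libraries for particular genes. For Tbx21, the lowest library of the group carried the same replicate number in every group except 80 µg at 24 h. With the replicate block all 17 counts of members stayed within 1.5 times, and 132 of 136 single results kept their direction and call. The block gained Ifng with 0.8 µg at 24 h against the control (1.37, adjusted p = 0.0498) and the interaction for Eomes (0.0386), and lost the change of the dose effect for Eomes from 4 h to 12 h (0.0660) and for Gzmb from 12 h to 24 h (0.200). In 9 cases of a member's result under an alternative, some of them the same result in 2 fits, no adjusted p was given, and these were left out.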
